A study of Mus musculus with 2 samples.

Results

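Expression of 10 genes that encode secreted ligands of the bone morphogenetic protein (BMP) and transforming growth factor beta (TGF-beta) family was examined in RNA sequencing of 2 mouse heart libraries. The genes were Bmp10, Bmp2, Bmp4, Bmp6, Tgfb1, Tgfb2, Tgfb3, Gdf15, Mstn and Inhbb, chosen by name and matched to every transcript of theirs in the deposited table. Of the 10, 9 were listed, each by 1 transcript, among 12395 genes and 23128 matched transcripts in all. Mstn, which encodes the muscle growth inhibitor myostatin, was not in the table and is not analysed here. The study compared C57BL/6 mice given a mimic of CHAPIR, a PIWI-interacting RNA of the heart, with mice given a scrambled negative control (NC) mimic, both from osmotic minipumps worn for 14 days. The labels give a dose of 30 mg/kg for the CHAPIR mimic and state no dose for the NC mimic, and they name no age or sex, no part of the heart and no number of animals per library. Each group held 1 library, so no difference has a replicate check, no test was possible, and every value describes these 2 libraries only.

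Ligands of this family are made as precursors, cut by furin-like proteases and released as dimers that bring together type II and type I receptor kinases. BMP-type ligands signal mainly through SMAD1, SMAD5 and SMAD9, and TGF-beta and activin-type ligands through SMAD2 and SMAD3. TGF-beta ligands are stored in the matrix in a latent complex and must be activated before they bind. In the heart, BMP10 is known as a ligand made by atrial muscle cells that acts on the vascular endothelium, and TGF-beta signalling is known for driving fibroblast activation and matrix production.

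Levels are given in FPKM (fragments counted per kilobase and scaled to the library), so that levels of different genes can be compared per length. A log2 ratio sets the CHAPIR value over the NC value, after 1 FPKM is added to each, and a gene is called higher or lower where this ratio passes 1.5-fold. Counts are over genes whose mean in the 2 libraries was at least 1 FPKM, which 6 of the 10 ligand genes reached (Bmp10, Bmp4, Bmp6, Tgfb1, Tgfb2 and Tgfb3). In the NC heart Y-linked genes were listed at 0 and in the CHAPIR heart they were present (Ddx3y at 21.6 FPKM), so apparent sex and mimic differed together and cannot be told apart. Depth is unknown, since the table holds no counts. In bulk heart tissue, fewer cells of a type and less RNA per cell cannot be told apart. The defining heart muscle genes Myh6 and Tnnt2 were at 3656 and 4235 FPKM in the CHAPIR heart and at 4122 and 4210 FPKM in the NC heart.

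Bmp10 was by far the most abundant ligand gene in both hearts and had the largest log2 ratio of the 6 measured. Among the 6 measured ligand genes, 1 (Bmp10) was at least 1.5-fold higher and 1 (Bmp4) at least 1.5-fold lower in the CHAPIR heart. Over all 11104 genes that reached this mean, 6.39% were higher and 3.59% lower by this rule. These shares were 8.39% and 5.19% among genes averaging 1 to 5 FPKM, 5.83% and 2.73% from 5 to 20 FPKM, and 3.62% and 2.22% from 20 FPKM upward. The median log2 ratio was 0.16 over the 6 ligand genes and 0.0038 over all genes. Summed over the 9 listed ligand genes, the level was 138 FPKM in the CHAPIR heart and 75.6 FPKM in the NC heart. Without Bmp10 the other 8 summed to 36.4 and 34.1 FPKM. Bmp10 made up 73.6% of the ligand sum in the CHAPIR heart and 54.8% in the NC heart.

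**Figure D1:**
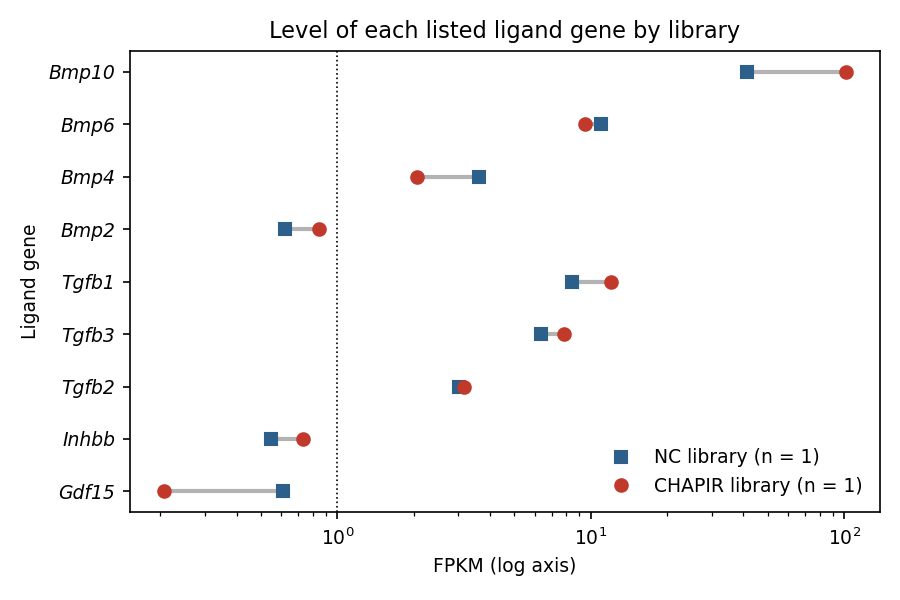
Level of each of the 9 listed ligand genes in the CHAPIR heart (circles) and the NC heart (squares), in FPKM on a log axis, 1 library each, with a dotted line at 1 FPKM. Bmp10 lies furthest right in both libraries (101 and 41.4 FPKM), and Bmp2, Inhbb and Gdf15 lie below 1 FPKM in both.

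The promoters of the 2 ligand genes past 1.5-fold, and of Tgfb1, the next in size of ratio among those measured, are shown so that the start regions of ligands with unlike heart levels can be read side by side. They are RefSeq sequences on GRCm38.p6, each from 250 bases before to 50 bases after the annotated start, printed on the strand of the gene, and the last 50 bases of each open the listed transcript. The windows are chr6:87428744-87429043 on the plus strand for Bmp10, chr14:46390620-46390919 on the minus strand for Bmp4 and chr7:25686752-25687051 on the plus strand for Tgfb1. Capitals mark matches on either strand to 3 motifs. The letters searched were TATAAA for the promoter box named after its first letters, GATAA for the core that GATA transcription factors bind, and GGGCGG for the GC-rich box of housekeeping promoters. They were chosen after the sequences were seen, and no match overlaps another in the windows printed.
Bmp10: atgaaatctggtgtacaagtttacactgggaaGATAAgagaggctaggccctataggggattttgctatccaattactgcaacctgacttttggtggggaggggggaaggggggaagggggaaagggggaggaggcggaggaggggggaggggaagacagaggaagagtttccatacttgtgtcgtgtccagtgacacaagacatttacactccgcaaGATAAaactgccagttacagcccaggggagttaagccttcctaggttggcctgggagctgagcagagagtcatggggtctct
Bmp4: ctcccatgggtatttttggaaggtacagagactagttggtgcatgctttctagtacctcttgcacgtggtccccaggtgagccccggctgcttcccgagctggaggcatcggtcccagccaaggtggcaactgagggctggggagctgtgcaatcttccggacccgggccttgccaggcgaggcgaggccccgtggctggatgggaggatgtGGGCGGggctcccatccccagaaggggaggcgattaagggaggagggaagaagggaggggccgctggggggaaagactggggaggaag
Tgfb1: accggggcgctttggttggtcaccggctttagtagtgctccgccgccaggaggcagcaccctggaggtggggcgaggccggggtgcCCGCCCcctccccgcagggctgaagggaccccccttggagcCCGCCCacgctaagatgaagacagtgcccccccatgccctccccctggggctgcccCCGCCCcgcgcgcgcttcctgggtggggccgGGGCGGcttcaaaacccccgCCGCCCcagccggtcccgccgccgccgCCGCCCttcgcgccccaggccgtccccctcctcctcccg
Bmp10 held GATAA at 2 places, whose first letters lay 218 and 32 bases before the start, and neither of the other motifs. Bmp4 held 1 GC box and Tgfb1 held 6, and neither held a match to the other motifs. Of all 32851 promoter windows of this length, 25.4% held GATAA, 35.7% a GC box and 13.6% TATAAA. Windows were at hand for 8 of the 10 ligand genes. TATAAA was found in those of Tgfb2 and Mstn, 31 and 29 bases before the start. Both of these windows also held GATAA, and those of Bmp6 and Inhbb held a GC box. A match is a description of letters and does not show that a factor binds there.

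Bmp10 (ENSMUSG00000030046, chromosome 6, 87428994 to 87437677) encodes the heart-restricted ligand of the endothelial receptor ALK1. Its transcript ENSMUST00000032125.6, with 2 exons and 4490 bases, was at 101 FPKM in the CHAPIR heart and 41.4 FPKM in the NC heart. The CHAPIR heart thus held the higher level, by a ratio of 2.45, and the log2 ratio on the FPKM + 1 scale was 1.27. By level, Bmp10 ranked 423 among all genes in the CHAPIR heart and 1030 in the NC heart. Of the 2208 genes averaging 20 FPKM or more, 27, Bmp10 included, had a log2 ratio at least as large, and the central 95% of that class ran from -0.53 to 0.76. The gene has 1 annotated coding transcript, so its value does not depend on how reads were shared among isoforms. Under the alternatives tried its log2 ratio lay between 1.20 and 1.29. Filters and choices of transcript cannot change it, and a pseudocount cannot change its sign.

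**Figure D2:**
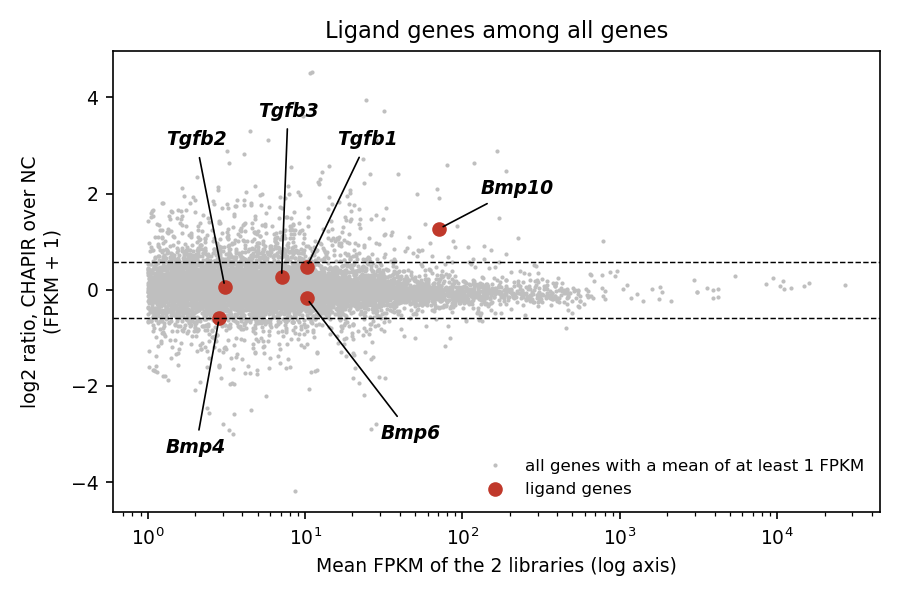
Log2 ratio of CHAPIR over NC (FPKM + 1) against the mean FPKM of the 2 libraries (log axis), for all 11104 genes averaging at least 1 FPKM (grey) and the 6 measured ligand genes (red), with dashed lines at 1.5-fold. Bmp10, at a log2 ratio of 1.27, lies well above the upper line, while Bmp6 and the TGF-beta genes lie within the dashed lines and Bmp4, at -0.59, lies on the lower line.

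Bmp10 is known as a gene of atrial muscle, so markers of atrial muscle are given beside it. Of the 9 atrial markers, 8 were measured, 0 were at 1.5-fold in either direction, and 3 had a positive log2 ratio. Their median was -0.08 and their range -0.36 to 0.30. The atrial light chain genes Myl7 and Myl4 were at 481 and 374 FPKM in the CHAPIR heart and at 616 and 449 FPKM in the NC heart. Sln, which encodes the atrial calcium pump inhibitor sarcolipin, was at 64.1 against 70.1 FPKM. Nppa, the atrial natriuretic peptide gene, was at 1603 against 1583 FPKM. Dkk3 (52.3 against 42.4 FPKM) and Stard10 (34.0 against 29.4 FPKM) had the highest ratios of the 8. Summed over the atrial list the level was 2620 FPKM in the CHAPIR heart and 2803 FPKM in the NC heart. The part of the amount of atrial tissue in the Bmp10 value was not tested.

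Relative to these genes Bmp10 was higher in the CHAPIR heart, which follows from the values above and is no separate result. It was at 21.1% of the level of Myl7 in the CHAPIR heart and 6.72% in the NC heart, and at 158% against 59.1% of the level of Sln. Myl7 and Sln themselves had negative log2 ratios. Against Dkk3 and Stard10, whose log2 ratios were positive, Bmp10 was at 194% against 97.8% and at 298% against 141%. Over 21 measured markers of atrial, ventricular and general heart muscle together, 0 were at 1.5-fold and the largest log2 ratio was 0.30. Ventricular Myl2 was at 3922 against 3947 FPKM and Irx4, a ventricular transcription factor gene, at 12.7 against 13.9 FPKM.

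**Figure D3:**
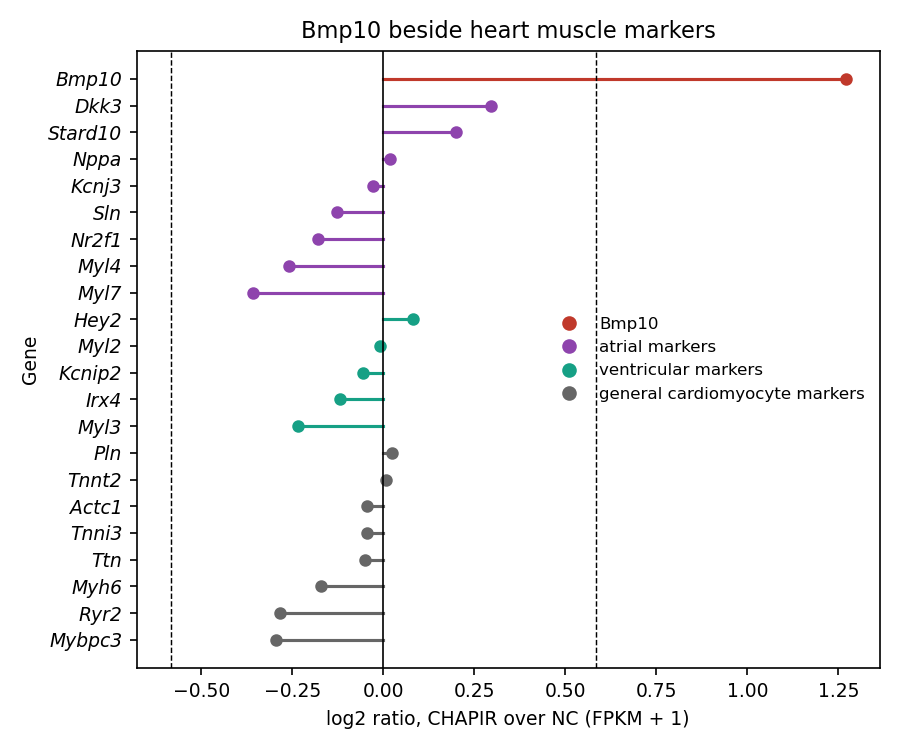
Log2 ratio of CHAPIR over NC (FPKM + 1) of Bmp10 (red), 8 atrial (purple), 5 ventricular (green) and 8 general heart muscle markers (grey), 1 library per group, with dashed lines at 1.5-fold. Bmp10 stands at 1.27, and the 21 markers lie between -0.36 and 0.30.

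The receptors and direct targets known for BMP10 differed less than the ligand. Gene sums of the ALK1 gene Acvrl1 (12.4 against 13.4 FPKM), of the type II receptor gene Bmpr2 (12.0 against 11.7 FPKM) and of the co-receptor gene Eng (50.5 against 48.0 FPKM) were each within 1.5-fold. Id1 and Id3, transcriptional inhibitors that BMP signalling induces, were at 29.7 against 24.3 FPKM and 28.6 against 26.8 FPKM, and the related Id2 was at 20.9 against 15.4 FPKM. Smad6, an inhibitory SMAD gene induced by BMP signalling, was at 5.74 against 5.76 FPKM, and the endothelial target genes Hey1 and Atoh8 were at 4.94 against 3.65 FPKM and 4.63 against 3.30 FPKM. Of 17 BMP target genes 14 were measured, with a median log2 ratio of 0.12, and 10 were positive. Of the 14, 1 was higher and 0 were lower, against 6.39% and 3.59% of all genes. The list was widest at Gata2 (3.58 against 5.59 FPKM, log2 ratio -0.52) and Msx1 (1.23 against 1.81 FPKM) on the lower side and at Hamp on the higher. Endothelial markers, 8 of 8 measured, had 0 at 1.5-fold and a median of 0.04.

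Bmp6 (chromosome 13, 38345107 to 38500302), the ligand through which liver endothelium reports iron stores, was the BMP gene next in level. Transcript ENSMUST00000171970.2, with 7 exons, was at 9.53 FPKM in the CHAPIR heart and 10.9 FPKM in the NC heart. The levels were close, with a log2 ratio of -0.18, and 19.0% of the 4544 genes averaging 5 to 20 FPKM had a ratio as low or lower. Hamp, which encodes the iron hormone hepcidin and is the target of BMP6 in liver, was the 1 BMP target gene called higher, at 28.7 against 14.6 FPKM (log2 ratio 0.93). The other iron genes differed less. Of 13 genes of iron handling 11 were measured, and Hamp was the only call, against 6.39% of all genes called higher. The BMP co-receptor gene Hfe2, which encodes hemojuvelin, was at 61.6 against 65.2 FPKM, the iron exporter gene Slc40a1 at 6.15 against 6.96 FPKM, the importer gene Slc11a2 at 4.95 against 5.74 FPKM, the transferrin receptor gene Tfrc at 5.66 against 6.09 FPKM and the ferritin gene Ftl1 at 145 against 121 FPKM. Hepcidin is also known to respond to inflammation, and macrophage markers were higher in the same library (given below beside Tgfb1). Their part in the result was not tested.

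Bmp4 (chromosome 14, 46383520 to 46390669), a ligand of mesoderm and of vascular and stromal cells, was the 1 ligand gene called lower. Its transcript ENSMUST00000074077.11, with 4 exons and 2064 bases, was at 2.07 FPKM in the CHAPIR heart and 3.62 FPKM in the NC heart. The NC heart held the higher level, by a ratio of 1.75, and the log2 ratio was -0.59, just past the 1.5-fold line. Of the 4352 genes averaging 1 to 5 FPKM, 218 (5.01%) had a ratio as low or lower, and 5.19% of that class were called lower. The call ended at a pseudocount of 5 (log2 ratio -0.29). It also ended, at -0.37, if the annotated coding transcript of Bmp4 that was not listed is set to 0.5 FPKM, the lowest value the table holds for the higher library, in the CHAPIR heart alone.

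Markers of smooth muscle and of adipocytes are given beside Bmp4, against 3.59% of all genes called lower. Of the 7 smooth muscle and pericyte markers, 1 (Tagln) was called lower, 5 had a negative log2 ratio and the median was -0.11. Tagln was at 24.2 against 39.2 FPKM, Acta2 at 72.2 against 99.5 FPKM and Myh11 at 14.5 against 21.6 FPKM, while the pericyte gene Rgs5 was at 161 against 149 FPKM. The summed level of this list was 350 FPKM in the CHAPIR heart and 390 FPKM in the NC heart. Of 7 measured adipocyte markers 5 were lower, with a median log2 ratio of -1.89 and summed levels of 430 and 459 FPKM, of which Fabp4, also an endothelial gene, made up 422 and 423 FPKM. Adipoq was at 1.35 against 9.87 FPKM. The adipocyte genes Ucp1, Retn and Lep were listed at 0 in the CHAPIR heart and at 4.91, 2.69 and 0.72 FPKM in the NC heart. Whether either cell type has a part in the Bmp4 value was not tested.

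Bmp2 (chromosome 2), a ligand of valve and cushion formation, was below 1 FPKM in both hearts. It was at 0.85 FPKM in the CHAPIR heart and 0.62 FPKM in the NC heart, in transcript ENSMUST00000028836.6. At this level the 2 values cannot be set apart from each other with 1 library per group and no counts. Sost encodes the antagonist sclerostin, of a protein family that binds BMPs, and was at 1.53 against 3.61 FPKM. It was the 1 of 9 measured extracellular antagonists called lower, against 3.59% of all genes. Fstl1, a secreted follistatin-like glycoprotein gene of the heart, was at 35.8 against 31.5 FPKM, and Bmper, a BMP-binding endothelial regulator, had the highest log2 ratio of the antagonists (0.45), at 1.89 against 1.12 FPKM. Wfikkn2, which encodes a binding protein of myostatin, was next at 2.84 against 2.22 FPKM. Nbl1 (4.86 against 6.71 FPKM) had the lowest log2 ratio after Sost among those measured. The follistatin gene Fst was at 0.63 against 0.24 FPKM, below the level for counting. Also below it was the antagonist gene Chrdl1, listed at 0 against 1.11 FPKM (log2 ratio -1.08). With no filter on low values Chrdl1 was called lower.

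The 3 TGF-beta ligand genes each had a positive log2 ratio, and 0 of the 3 passed 1.5-fold. Their summed level was 23.0 FPKM in the CHAPIR heart and 17.8 FPKM in the NC heart. Tgfb1 (chromosome 7, 25687002 to 25705077), the form made by platelets, immune cells and endothelium, was at 12.0 FPKM in the CHAPIR heart and 8.41 FPKM in the NC heart. The ratio was 1.43 and the log2 ratio 0.47, and 7.66% of genes averaging 5 to 20 FPKM had one as large or larger. This log2 ratio lay between 0.35 and 0.51 under the alternatives tried, though, as for Bmp10, filters and choices of transcript cannot change it. Tgfb3 (chromosome 12), known from palate and valve development, was at 7.81 against 6.36 FPKM (log2 ratio 0.26). Tgfb2 (chromosome 1), the form required in cardiac cushion development, was at 3.17 against 3.02 FPKM. Its log2 ratio of 0.05 became -0.12 or 0.21 with its unlisted coding transcript set to 0.5 FPKM in the NC or the CHAPIR heart, so it has no settled direction. In order of level Tgfb1 led Tgfb3 and Tgfb3 led Tgfb2 in both hearts, with Tgfb1 at 3.80 times Tgfb2 in the CHAPIR heart and 2.79 times in the NC heart.

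Macrophage and platelet markers, from cells known to make or carry TGF-beta1, were higher in the library with more Tgfb1. The marker counts that follow stand beside 6.39% of all genes called higher. All 8 macrophage markers were measured and had a positive log2 ratio, 5 of them at 1.5-fold, with a median of 0.70 and summed levels of 277 and 163 FPKM. C1qa was at 79.0 against 48.3 FPKM and Csf1r at 15.6 against 11.2 FPKM. Of 5 measured platelet markers 4 were higher, and the list summed to 53.0 and 17.9 FPKM, with the platelet factor gene Pf4 at 26.4 against 14.4 FPKM. Fibroblast markers were closer, with 1 of 8 called higher, a median of 0.13 and summed levels of 1075 and 1015 FPKM. The part of these cells in the Tgfb1 value was not tested.

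Genes that store and activate latent TGF-beta held 4 of the 10 genes called higher across the pathway, iron handling and stress response lists. Of 25 listed for this role 17 were measured, 4 were higher and 0 were lower, against 6.39% and 3.59% of all genes, and the median log2 ratio was -0.02. Of the 4 calls only Itgav was also made at a pseudocount of 5, and only Itgav averaged at least 5 FPKM. Itgav, which encodes an integrin alpha chain that takes part in activating latent TGF-beta, was at 8.03 FPKM in the CHAPIR heart and 2.57 FPKM in the NC heart, a log2 ratio of 1.34. Thbs1, the gene of the matrix activator thrombospondin, was at 6.10 against 3.17 FPKM, and Mmp14, a membrane metalloprotease gene, at 6.24 against 3.45 FPKM. Nrros, which encodes the protein that tethers latent TGF-beta on macrophages and microglia, was at 5.18 against 2.03 FPKM. That call rested on the sum of 4 transcripts, of which 3 were listed at 0 in the NC heart, and Nrros was not called with its most abundant transcript alone. The partner integrin genes Itgb1 (149 against 142 FPKM) and Itgb5 (30.7 against 31.1 FPKM) were within 1.5-fold. Lower on this list were the latent TGF-beta binding protein genes Ltbp4 (47.0 against 63.9 FPKM, log2 ratio -0.43) and Ltbp3 (8.21 against 9.74 FPKM), and Lrrc32, which tethers latent TGF-beta on regulatory T cells and endothelium (4.14 against 5.20 FPKM), though none passed 1.5-fold. The lower sum of Ltbp4 came from transcript ENSMUST00000038618.12, listed at 0 against 19.0 FPKM, while its most abundant transcript ENSMUST00000121175.7 was at 42.9 against 39.5 FPKM. The precursor protease gene Furin was at 15.7 against 17.2 FPKM.

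TGF-beta target genes were mixed. Of 22 genes on the list 20 were listed in the table and measured, with a median log2 ratio of 0.18, and 11 were positive. Of the 20, 3 were higher and 1 was lower, against 6.39% and 3.59% of all genes. Col3a1 (66.7 against 37.4 FPKM), Col1a1 (21.4 against 13.7 FPKM) and the collagen cross-linking enzyme gene Lox (2.58 against 0.85 FPKM) were higher. The Lox call rested on ENSMUST00000025409.7, listed at 2.03 against 0 FPKM, while its other transcript ENSMUST00000171470.7 was at 0.55 against 0.85 FPKM. Neither Lox nor Col1a1 was called at a pseudocount of 5. The feedback inhibitor gene Smad7 was at 6.84 against 4.95 FPKM and Skil at 2.97 against 1.98 FPKM. Tagln and Acta2, contractile genes of smooth muscle and activated fibroblasts, were the lowest, at log2 ratios of -0.67 and -0.46, and the fibronectin gene Fn1 was at 5.97 against 7.03 FPKM.

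Receptors and SMADs held no call when transcripts were summed. With the most abundant transcript only, Acvrl1 was called lower (log2 ratio -0.72) and Rgma higher (0.69), and with no filter on low values Acvr2b was called lower (-0.93). Of 19 receptor and co-receptor genes 13 were measured, with log2 ratios from -0.29 to 0.26 and a median of 0.04. Highest were the BMP receptor gene Bmpr1a (24.4 against 20.2 FPKM) and the activin receptor gene Acvr2a (6.04 against 5.10 FPKM), and lowest was the BMP co-receptor gene Rgmb (5.42 against 6.87 FPKM). Tgfbr1 and Tgfbr2, the kinases for TGF-beta, were at 5.51 against 5.05 FPKM and 13.3 against 11.8 FPKM, and the co-receptor gene Tgfbr3 at 12.3 against 12.1 FPKM. Acvr1 (6.42 against 5.69 FPKM), Acvr1b (5.43 against 5.77 FPKM) and Rgma (7.54 against 8.16 FPKM) completed the measured receptors. Acvr2b, a receptor for myostatin and activins, was at 0.23 against 1.35 FPKM, with a mean below the level for counting. All 6 SMAD genes were measured, between Smad3 (4.32 against 4.68 FPKM, log2 ratio -0.09) and Smad2 (7.30 against 5.75 FPKM, log2 ratio 0.30). Smad1, Smad4, Smad5 and Smad9 were at 4.82 against 4.19, 10.9 against 10.7, 7.52 against 7.58 and 1.32 against 1.17 FPKM. Among 10 intracellular inhibitors 0 were called when transcripts were summed with a pseudocount of 1 FPKM. Skil and Smad7, given above, were the highest. Tgif1, a SMAD corepressor gene (1.77 against 2.75 FPKM), and Smurf1, a ubiquitin ligase gene (7.33 against 9.26 FPKM), were the lowest. With the most abundant transcript only, Smurf1 was called lower (log2 ratio -1.12) and Skil higher (0.69). At a pseudocount of 0.1 Tgif1 was called lower (-0.61).

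**Figure D4:**
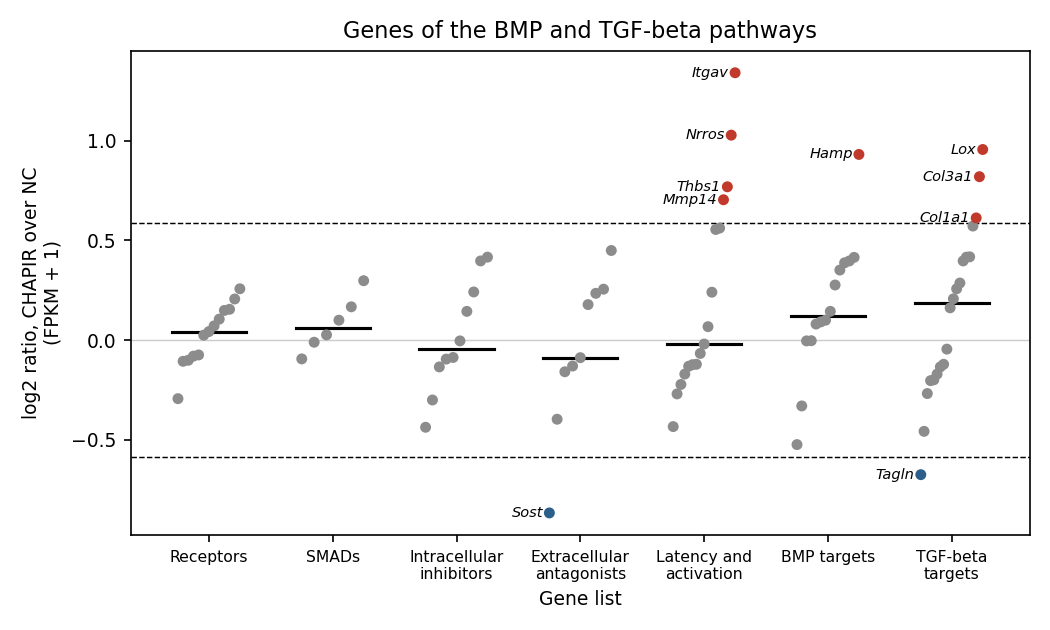
Log2 ratio of CHAPIR over NC (FPKM + 1) of each measured gene in 7 lists of the BMP and TGF-beta pathways (points, 1 per gene), with the list median (bar) and dashed lines at 1.5-fold. Points past the line are named, and they lie in the lists of antagonists, latency and activation, and targets, while receptors, SMADs and intracellular inhibitors lie within the lines.

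Gdf15 (chromosome 8), a stress-induced hormone gene whose protein acts on the brainstem receptor GFRAL, was at a level too low to count in both hearts. It was at 0.21 FPKM in the CHAPIR heart and 0.61 FPKM in the NC heart, in transcript ENSMUST00000003808.7, a log2 ratio of -0.42. The listed transcripts each reach 0.5 in at least 1 library, and that of Gdf15 did so in the NC heart only. With its unlisted coding transcript set to 0.5 FPKM in the CHAPIR heart the log2 ratio became 0.08, so Gdf15 has no settled direction. Genes of the integrated stress response, a known inducer of Gdf15, are given beside it. Of 18 genes on that list 14 were measured, 2 were higher and 0 were lower, against 6.39% and 3.59% of all genes, and the median log2 ratio was 0.16. Atf3, also an immediate early gene, was at 8.51 against 1.14 FPKM, and the mitochondrial folate enzyme gene Mthfd2 at 2.03 against 0.42 FPKM. Ddit3, the gene of the stress factor CHOP, was at 23.0 against 16.3 FPKM and Atf4 at 37.7 against 34.1 FPKM. Lowest were Aldh18a1 (1.95 against 2.08 FPKM) and Cdkn1a (5.98 against 6.21 FPKM).

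Inhbb (chromosome 1), the gene of the activin B subunit, was at 0.73 FPKM in the CHAPIR heart and 0.54 FPKM in the NC heart. Like Bmp2, it lay below the level for counting in both hearts. Of 23 further ligand genes of the family 6 were listed and 1 was measured, the inhibin alpha gene Inha, at 2.16 against 2.73 FPKM. Bmp5, Gdf10, Gdf11, Inhba and Lefty1 were each listed below 1 FPKM in both libraries. For Mstn, which skeletal muscle expresses strongly, 5 of 8 skeletal muscle genes (Myh1, Myh2, Myh4, Tnnt3 and Actn3) were likewise not in the table. The other 3 were Ckm (402 against 480 FPKM), Acta1 (108 against 153 FPKM) and Myl1 (36.6 against 41.6 FPKM), of which 0 were called.

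Counts were also taken across 10 lists: those of the pathway, iron handling and the integrated stress response. Together 103 genes were measured, with a median log2 ratio of 0.09. Of these 10 (9.71%) were higher and 2 (1.94%) lower, against 6.39% and 3.59% of all genes. The genes called higher were Itgav, Thbs1, Mmp14, Nrros, Col3a1, Col1a1, Lox, Hamp, Atf3 and Mthfd2, and those called lower were Sost and Tagln. Atf3 and Mthfd2 came from the stress response list. These shares lie near those of all genes and are no result about the pathway.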

How the data were processed

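RNA of 1 heart library per group was sequenced from total RNA, fragmented and primed at random, and its second strand made with dUTP, as the labels' protocols state. The authors deposited 1 value for each Ensembl transcript in each library, taken to be FPKM. Neither labels nor header name the unit, which was inferred from the values: times transcript length in kilobases they sum to 739668 (CHAPIR) and 732588 (NC). Were they TPM, each plain ratio would change by 1 factor common to all genes. The log2 ratios, taken after 1 is added, would not all change by the same amount. HISAT2 2.0.5, STAR 2.5.2b, StringTie, cutadapt and GRCm38 are named, without roles, in the submitters' processing notes. The table's 23178 transcripts each reach 0.5 in at least 1 library.

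Identifiers without version were matched to GENCODE M21 (GRCm38, 1-based coordinates), and 50 did not match. Listed transcripts were summed per gene in Python 3.11.15 with pandas 2.3.3. A pseudocount of 1 FPKM, which understates changes of low genes, a mean of at least 1 FPKM and a 1.5-fold line were used. The ligand genes, gene lists, motifs and the naming rule (all members, the extremes and calls of each list, all receptors and SMADs, with marker lists given in part) were chosen with earlier results of these data known. Other genes were named after their values were seen. No gene of like pattern is named, since 2 libraries give no measure of likeness. Depth is unknown, so no counting interval is given. Values of a few list genes are not reported here.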

Additional observations from a re-analysis of the deposited data

How the results depend on the processing

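No paired analysis was possible because there was 1 library in each group. Under the alternatives tried (10 for each gene that all could measure), the log2 ratios of Bmp10, Bmp4, Bmp6, Tgfb1 and Tgfb3 kept their direction. With 1 listed transcript each, filters and choices among listed transcripts cannot change these ratios, and a pseudocount cannot change their sign. Kept direction is thus in large part built in. The log2 ratio of Tgfb2 ranged from -0.12 to 0.21 and that of Bmp4 from -0.78 to -0.29. The 1 ligand gene called lower became 0 among genes averaging at least 5 FPKM (where Bmp4 is not measured), at a pseudocount of 5, and with unlisted coding transcripts at 0.5 FPKM in the CHAPIR heart, an alternative chosen after seeing the data. In the pathway, iron handling and stress response lists, 10 genes were called higher and 2 lower. The 10 became 4 among genes averaging at least 5 FPKM and 4 at a pseudocount of 5. With a pseudocount of 0.1 they became 15, and with the most abundant transcript only 12. The 2 became 1 among genes averaging at least 5 FPKM and 1 at a pseudocount of 5. They became 4 at a pseudocount of 0.1, 4 with no filter and 6 with the most abundant transcript only. Of all genes, 6.39% higher became 9.88% with the most abundant transcript and 2.44% at a pseudocount of 5, and 3.59% lower became 6.90%, 1.23% and, at a pseudocount of 0.1, 5.45%. The filter tests fewer genes, and a larger pseudocount shrinks ratios of low genes by construction. For the other changes the cause was not tested. No limit from depth can be given, since depth is unknown.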

Other observations

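Several genes of the pathway had listed transcripts that differed in opposite directions, so that the gene sum differed less than its parts. Of the ALK1 gene Acvrl1, the receptor of BMP10, transcript ENSMUST00000000542.13 was at 5.65 FPKM in the CHAPIR heart and 2.38 FPKM in the NC heart, and ENSMUST00000117984.7 at 5.18 against 9.21 FPKM. Both have 11 exons, and they have lengths of 3640 and 1852 bases. Of its co-receptor gene Eng, ENSMUST00000009705.13 was at 2.00 against 8.46 FPKM, while ENSMUST00000113272.7 and ENSMUST00000167841.7 were at 23.4 against 19.6 and 23.6 against 18.9 FPKM.

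Among genes that handle the ligands, Ltbp1, which binds latent TGF-beta, was at 7.05 against 3.55 FPKM in ENSMUST00000001927.11 and at 3.25 against 8.79 FPKM in ENSMUST00000112514.1. The precursor protease gene Pcsk6 was at 7.31 against 1.41 FPKM in ENSMUST00000055576.11 and at 8.74 against 16.7 FPKM in ENSMUST00000098391.10. Smurf1 was at 3.63 against 2.22 FPKM in ENSMUST00000110677.7 and at 2.09 against 5.74 FPKM in ENSMUST00000085684.10. These genes were picked after their values were seen. The sources used here do not state how reads were shared among overlapping transcripts, and the part of that step in these values was not tested. The ligand genes themselves had 1 listed transcript each, so whether they have such a split cannot be seen. Bmp4, Bmp6, Tgfb2 and Gdf15 each have 1 further annotated coding transcript that was not listed.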
